A study of Mus musculus with 10 samples.

Results

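The 9 genes described here make, break down, carry or read retinoic acid: *Aldh1a1*, *Aldh1a2* and *Aldh1a3* (synthesis), *Cyp26a1* and *Cyp26b1* (degradation), *Crabp1* and *Crabp2* (intracellular carriers), and *Rarb* and *Rarg* (receptors). They were chosen by name and found through their Ensembl identifiers among the 53465 genes of a raw count table, and each of the 9 had enough counts to be among the 16426 genes tested. The libraries are bulk poly(A) RNA-seq of the forming pinna prominence, the outgrowth that becomes the external ear, micro-dissected from E14.5 embryos. The groups are 5 wild type (WT) embryos and 5 *mEC1dup/dup* embryos, in which CRISPR/Cas9 added a further copy of the *Hmx1* enhancer mEC1 to each allele. Mice of the study were kept on a C57BL/6J background, no treatment was given, and the methods call the 5 replicates of a genotype independent, taken from siblings of separate litters. The comparison asks how gene expression in the pinna changes when this enhancer is duplicated.

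Retinoic acid is a small signal derived from vitamin A. Cells take up retinol, oxidise it to retinal and then, through the ALDH1A enzymes, to retinoic acid, while the CYP26 enzymes oxidise retinoic acid to products that are cleared, so that synthesis and degradation set where in an embryo the signal is high. CRABP2 hands retinoic acid to nuclear receptors of the RAR family, which bind DNA with RXR partners, and CRABP1 holds it in the cytoplasm. The pathway patterns the head, the pharyngeal arches and the limbs, and *Cyp26a1* and *Rarb* are textbook direct targets of the receptors.

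In these libraries *Crabp2* was the member that rose in *mEC1dup/dup* pinnae, by 1.30-fold, and it did so in every embryo. The other 8 members did not pass the test. *Crabp1*, the most abundant member per kilobase of exon, was at the same mean level in both genotypes to within 1%. Outside the 9 genes, *Stra6*, the cell surface receptor for retinol bound to its plasma carrier, rose by 1.34-fold, and *Fabp5*, a lipid carrier that also delivers retinoic acid, fell to 0.78 of its WT level. The *Fabp5* call was lost in 4 of 10 fits with a library left out, and the calls of all 3 genes were lost when the *Xist* level, the embryonic globin share or the epidermal marker level was added as a further term. In that order, the log2 fold change of *Crabp2* was then 0.33 ± 0.07 (SE), 0.12 ± 0.19 and 0.36 ± 0.11, against 0.38 ± 0.05 without a further term. For *Stra6* it was 0.40, 0.38 and 0.53, against 0.43. For *Fabp5* it was -0.33, 0.10 and 0.02, against -0.36. Over all genes these fits called 3, 0 and 0. The globin share and the epidermal marker level did not overlap between the genotypes, so the fits cannot separate them from genotype.

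Library totals ran from 17461544 to 18462073 counts. *Hmx1*, whose enhancer was duplicated, checked the labels: it lay between 21.7 and 29.1 CPM (counts scaled by library size) in WT and between 52.8 and 77.5 CPM in *mEC1dup/dup*. Other measures differed between the groups as well. Embryonic globins made up 18.4% to 23.3% of globin counts in WT and 32.5% to 35.6% in *mEC1dup/dup*. *Xist*, transcribed from the inactive X chromosome of females, had at most 5 counts in each WT library, 2096 to 19040 in 4 *mEC1dup/dup* libraries and 0 in *mEC1dup/dup* replicate 5. By *Xist*, embryo sex differed between the groups, with only *mEC1dup/dup* replicate 5 like WT. Sex and genotype can thus hardly be told apart in these libraries. The summed CPM of 4 suprabasal epidermal markers (*Krt1*, *Krt10*, *Krtdap*, *Dmkn*) was 150.6 to 426 in WT and 54.0 to 75.0 in *mEC1dup/dup*, with 4 of 4 lower, and that of 4 skeletal muscle markers was 646 to 985 against 367 to 594, with 2 of 4 lower DEGs and the other 2 (*Myod1* and *Myog*) at positive log2 fold changes of 0.09 and 0.12. The 4 basal epidermal markers gave 597 to 1072 against 452 to 640, with 2 of 4 lower DEGs and 0 of 4 positive, and of the 4 blood markers 1 (*Hbb-y*) was a higher DEG, with sums of 710.1 to 1165 against 911 to 1814. The 4 mesenchymal markers gave 4680 to 8283 against 5420 to 6004, and the 4 cartilage markers 4048 to 6856 against 1937 to 5602, so the labelled tissue was present in each library. No marker of these lists was at 0 in all libraries.

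The DNA upstream of the annotated start sites was read from the GRCm39 genome, the build of the files, and searched on both strands for a retinoic acid response element, written as a direct repeat of the hexamer AGGTCA with 1, 2 or 5 bases between the copies, where a copy could also be the variant AGTTCA, the variant GGTTCA or the variant GGGTCA. The window ran from 250 bases before to 50 bases after the start. *Cyp26a1* is shown because its window was the single one among the 9 to hold a repeat. Printed are the 250 bases before its start on the plus strand, at chr19:37685991-37686240. Capitals mark the repeat, which lies on the minus strand, has 5 bases between its hexamers and ends at the base before the start.

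Cyp26a1: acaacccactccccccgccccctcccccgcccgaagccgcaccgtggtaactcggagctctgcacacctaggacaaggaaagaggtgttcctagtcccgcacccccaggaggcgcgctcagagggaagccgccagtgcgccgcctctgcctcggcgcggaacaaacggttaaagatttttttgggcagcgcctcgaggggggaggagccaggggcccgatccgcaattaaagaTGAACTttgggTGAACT

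A repeat with 5 bases between hexamers stood in 0.0484% of 14477 windows of tested protein-coding genes, and a repeat of any of the 3 spacings in 0.318%. The *Rarb* window at the main annotated start held none, but a copy lay 298 bases inside that start, in an annotated exon and upstream of other annotated starts of the gene, at chr14:5894234-5894250. It is printed on the plus strand, which is the gene's strand, with the hexamers in capitals.

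Rarb: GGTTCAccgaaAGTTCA

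The windows of *Stra6* and *Fabp5* held none of these repeats. The hexamer CAAGTG, a core bound by HMX proteins, stood in 2 of the 9 members' windows (*Aldh1a2* and *Cyp26b1*) and in 12.7% of the 14477. These are matches of letters, and no binding was measured here.

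To ask which members differed between genotypes, counts were fitted over all genes with edgeR's quasi-likelihood test. Differentially expressed genes (DEGs) were those at or under 0.05 in adjusted p whose log2 CPM averaged 1 or more. By this rule 1 of 9 members was a DEG, against 2.64% of all tested genes, and with no minimum on the level it was also 1, against 2.77%. Of those genes, 0.834% were higher DEGs and 1.81% lower DEGs. At an unadjusted p under 0.05, 2 of 9 members passed (*Crabp2* and *Aldh1a1*), against 16.2% of all tested genes. The median log2 fold change of the 9 members was 0.13 and that of all tested genes was -0.0041, with median standard errors of 0.12 and 0.083.

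**Figure D1:**
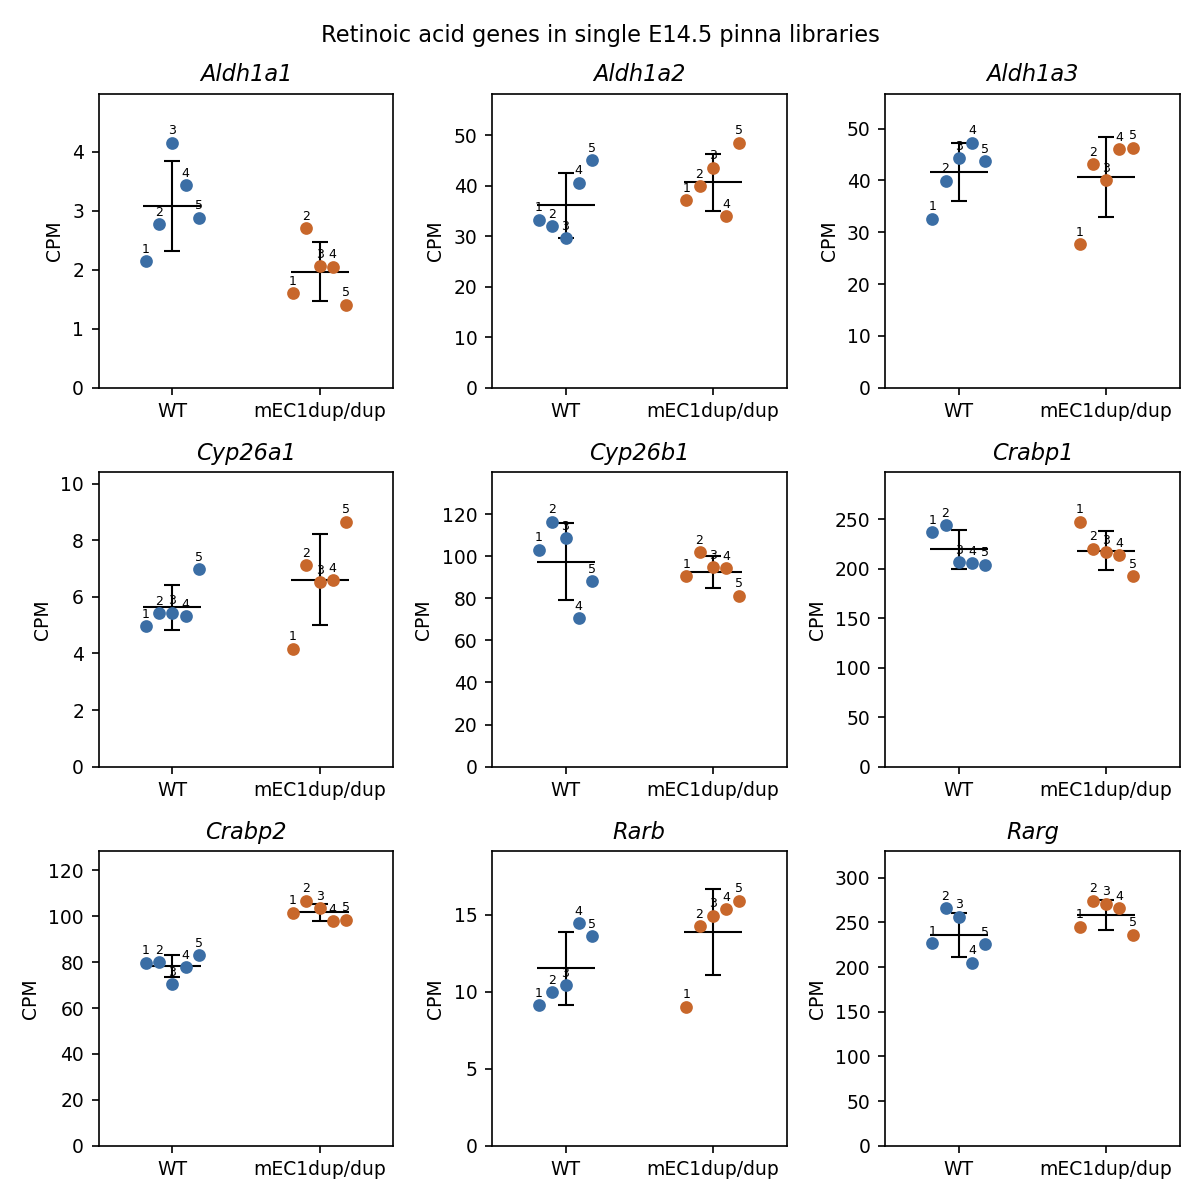
Each panel plots the normalised level (CPM, linear axis from 0) of a member in each of the 10 libraries, numbered by replicate, with the genotype mean and SD as bars. Only in the *Crabp2* panel are the genotypes apart, with *mEC1dup/dup* at 97.9 to 107 and WT at 70.3 to 82.9, and in the *Aldh1a3*, *Cyp26a1* and *Rarb* panels *mEC1dup/dup* replicate 1 lies below the other *mEC1dup/dup* libraries.

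*Aldh1a2* and *Aldh1a3*, the retinal dehydrogenases of embryonic mesenchyme and of epithelia and sensory organs, were the abundant synthesis genes and did not pass the test. *Aldh1a2* (chr9:71122630-71203527) was read, in the order of replicates 1 to 5, with 576, 578, 527, 732 and 814 counts in WT and with 650, 724, 802, 629 and 896 in *mEC1dup/dup*, and the same order is kept for the genes that follow. The ranges overlapped, and each *mEC1dup/dup* library lay above the WT median. The means were 36.1 ± 6.48 CPM (SD, n = 5) in WT and 40.6 ± 5.67 in *mEC1dup/dup*, a log2 fold change of 0.17 (95% interval -0.09 to 0.43, edgeR adjusted p = 0.539). It was 0.10 without *mEC1dup/dup* replicate 5 (adjusted p = 0.762) and 0.26 without WT replicate 5 (adjusted p = 0.288).

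*Aldh1a3* (chr7:66040638-66077850) had 565, 722, 789, 854 and 789 counts in WT and 484, 782, 738, 854 and 855 in *mEC1dup/dup*. The genotypes overlapped almost entirely, and replicate 1 was the lowest library in both. Its means were 41.6 ± 5.64 and 40.6 ± 7.69 CPM, a log2 fold change of -0.03 (95% interval -0.31 to 0.25, edgeR adjusted p = 0.935).

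*Aldh1a1* (chr19:20469539-20622825), a dehydrogenase known from dorsal retina and adult tissues, was the faintest member. It had 37, 50, 74, 62 and 52 counts in WT and 28, 49, 38, 38 and 26 in *mEC1dup/dup*, so that counting error was large. Each *mEC1dup/dup* library lay below the WT median of 52 counts, while *mEC1dup/dup* replicate 2 lay above WT replicate 1. The level went from 3.07 ± 0.759 to 1.96 ± 0.500 CPM, a log2 fold change of -0.64 ± 0.22 (SE) with a 95% interval of -1.12 to -0.17. Its unadjusted p was 0.012 and its adjusted p over all genes was 0.155, so it was not called. An exact two-sided permutation test of its log2 CPM over 252 arrangements gave p = 0.0159, unadjusted. With *Xist*, the embryonic globin share or the epidermal marker level as a further term, its log2 fold change was -1.03 ± 0.36 (SE), -1.69 ± 0.98 or -1.38 ± 0.48. The globin share and the epidermal marker level do not overlap between the genotypes, so these fits cannot separate them from genotype. The epidermal term was chosen after seeing the data, and edgeR called *Aldh1a1* with none of the terms (adjusted p = 0.407, 0.898 and 0.575).

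Of the degradation genes, *Cyp26b1*, which clears retinoic acid from limb and craniofacial mesenchyme, was the abundant member. *Cyp26b1* (chr6:84548396-84570890) had 1785, 2104, 1934, 1274 and 1590 counts in WT and 1583, 1849, 1744, 1748 and 1501 in *mEC1dup/dup*. The WT libraries spread more widely (coefficient of variation 18.7%) than the *mEC1dup/dup* libraries (8.13%), which all lay within the WT range. Its means were 97.4 ± 18.2 and 92.5 ± 7.53 CPM, a log2 fold change of -0.07 (95% interval -0.31 to 0.17, edgeR adjusted p = 0.803).

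*Cyp26a1* (chr19:37686241-37689984) had 86, 98, 97, 96 and 126 counts in WT and 73, 129, 120, 122 and 160 in *mEC1dup/dup*. The lowest of the 10 libraries and the highest were both *mEC1dup/dup*. The means were 5.63 ± 0.779 and 6.61 ± 1.61 CPM, a log2 fold change of 0.23 (95% interval -0.14 to 0.61, edgeR adjusted p = 0.562).

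*Crabp2* (chr3:87855973-87860683) had 1380, 1446, 1252, 1405 and 1497 counts in WT and 1777, 1939, 1905, 1816 and 1820 in *mEC1dup/dup*. In CPM these were 79.7, 80.0, 70.3, 77.8 and 82.9 in WT and 102, 107, 103, 97.9 and 98.5 in *mEC1dup/dup*. The lowest *mEC1dup/dup* library was above the highest WT library. Groups that did not overlap, in either direction, were found for 5.07% of all tested genes. The mean rose from 78.2 ± 4.77 to 102 ± 3.67 CPM (SD, n = 5), a log2 fold change of 0.38 ± 0.05 (SE) with a 95% interval of 0.28 to 0.48. The unadjusted p was 1.6e-06, rank 14 among 16426 genes, and the adjusted p was 0.00188. The exact two-sided permutation test gave p = 0.00794, the smallest that 5 against 5 allows.

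The *Crabp2* call held when any of the 10 libraries was left out, with log2 fold changes of 0.34 to 0.40 and adjusted p of at most 0.012. *mEC1dup/dup* replicate 5 had 0 *Xist* counts and 98.5 CPM of *Crabp2*, and the WT libraries had 2 to 5 *Xist* counts and at most 82.9 CPM. That is a single library, and the part of embryo sex was not tested beyond the fit that follows. With the *Xist* level as a further term the log2 fold change was 0.33 (adjusted p = 0.215), and with the embryonic globin share, which does not overlap between the genotypes, it was 0.12 (adjusted p = 0.939), while over all genes these fits left 3 and 0 DEGs. Globin share and genotype cannot be told apart in these libraries. Suprabasal markers also moved with genotype, and their part in the result was not tested beyond a fit with the epidermal marker level as covariate, chosen after seeing the data, which gave 0.36 (adjusted p = 0.575). In bulk tissue a change in the number of expressing cells and a change in RNA per cell cannot be told apart.

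*Crabp1* (chr9:54671171-54680403), a mark of neural crest and dermal mesenchyme in embryos, had 4105, 4410, 3679, 3707 and 3687 counts in WT and 4333, 3994, 3993, 3959 and 3557 in *mEC1dup/dup*. The highest and the lowest library in CPM were both *mEC1dup/dup*, at 248 and 192.6. Its means were 219 ± 19.5 and 218 ± 19.7 CPM, and the 95% interval of the log2 fold change ran from -0.16 to 0.14 (edgeR adjusted p = 0.965). Per length of exon, *Crabp2* made up 26.1% ± 1.77 (SD) of the 2 carriers together in WT, with libraries from 24.5% to 28.6%, and 31.6% ± 1.77 in *mEC1dup/dup*, with libraries from 28.8% to 33.6%.

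*Rarg* (chr15:102143373-102165952), the receptor typical of mesenchyme, cartilage precursors and skin, had 3921, 4798, 4569, 3701 and 4070 counts in WT and 4292, 4979, 4988, 4929 and 4364 in *mEC1dup/dup*. Each *mEC1dup/dup* library lay above the WT median, and the groups overlapped. Its means were 235.8 ± 24.8 and 259 ± 16.8 CPM, a log2 fold change of 0.13 (95% interval -0.01 to 0.28, edgeR adjusted p = 0.369).

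*Rarb* (chr14:5650540-6041094), the receptor that retinoic acid itself induces, had 158, 180, 186, 261 and 246 counts in WT and 158, 259, 275, 285 and 294 in *mEC1dup/dup*. Replicate 1 was the lowest library of each genotype in CPM, and the other 4 *mEC1dup/dup* libraries lay between 14.3 and 15.9 CPM, around the highest WT library, replicate 4. The means were 11.5 ± 2.36 and 13.9 ± 2.79 CPM, a log2 fold change of 0.27 (95% interval -0.08 to 0.62, edgeR adjusted p = 0.464). Without *mEC1dup/dup* replicate 1 the log2 fold change was 0.39 (adjusted p = 0.147). Of the exonic bases of *Rarb*, 33.9% are overlapped on the other strand by *Gm48162* and *Top2b*, the latter at 290 ± 6.73 CPM in WT, and the use of strand in counting is not given in the sources used here. *Rarb* and *Top2b* reads cannot be told apart there, and the log2 fold change of *Top2b* was 0.05 (adjusted p = 0.532). For the other members such overlap was 0% to 8.44%.

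Levels of different members were compared as CPM per kilobase of exon. In WT the order was *Crabp1* (168 ± 14.95), *Crabp2* (59.1 ± 3.61), *Rarg* (50.9 ± 5.35), *Cyp26b1* (17.1 ± 3.20), *Aldh1a2* (7.81 ± 1.40), *Aldh1a3* (7.30 ± 0.990), *Cyp26a1* (2.83 ± 0.392), *Rarb* (1.38 ± 0.283) and *Aldh1a1* (0.286 ± 0.0706). Neighbours in this order had separate libraries except *Crabp2* with *Rarg* and *Aldh1a2* with *Aldh1a3*. In *mEC1dup/dup* the order was the same, and *Crabp2* (74.1 to 80.8) and *Rarg* (51.1 to 59.3) no longer overlapped. *Crabp1* stood at percentile 99.1 of tested genes in WT, *Crabp2* at 96.9, *Rarg* at 96.3 and *Cyp26b1* at 85.0, and the synthesis genes *Aldh1a2* and *Aldh1a3* stood at 68.2 and 66.6. *Aldh1a1* stood at percentile 6.99. Among the enzymes, *Aldh1a2* and *Aldh1a3* each made up about as much of the ALDH1A level as the other (50.6% and 47.5% in WT), and *Cyp26b1* made up 85.5% of the level of the 2 CYP26 members. *Rarg* made up 97.3% of the level of *Rarb* and *Rarg* together. These values depend on the length used, and those with *Rarb* also on how reads in its overlapped bases were counted, which is not known. With the longest transcript as length, *Aldh1a3* (10.3) stood above *Aldh1a2* (7.81) in WT, and the libraries of *Cyp26a1* and *Rarb* overlapped.

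**Figure D2:**
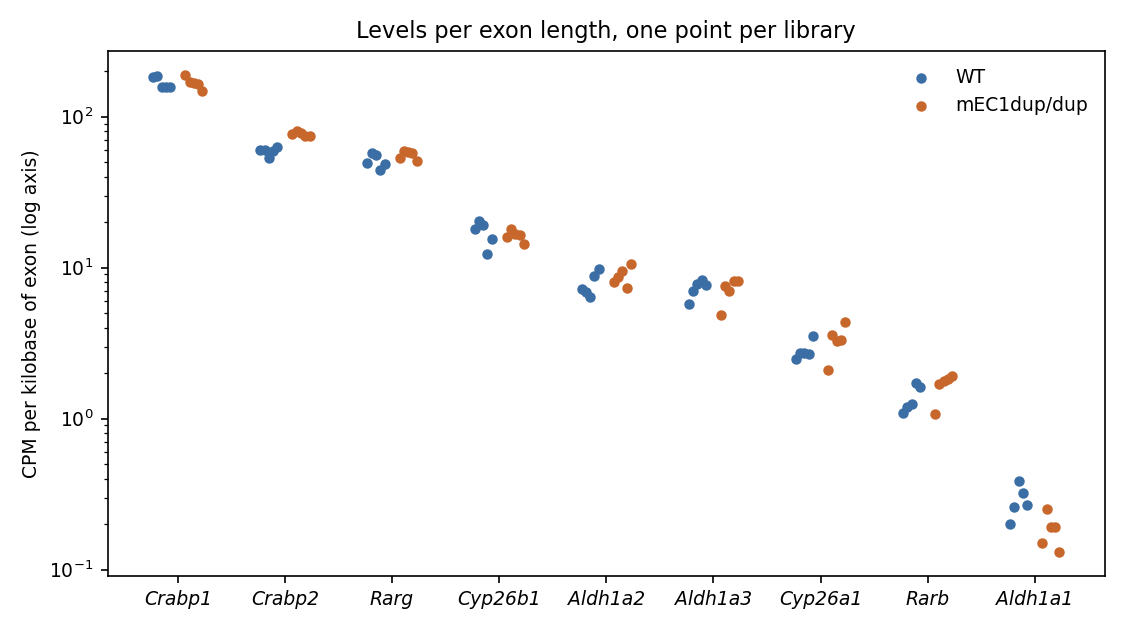
CPM per kilobase of exon (log axis) of the 9 members in each library, coloured by genotype and ordered by the WT mean. The members span from *Crabp1* at 156.5 to 187.1 in WT down to *Aldh1a1* at 0.199 to 0.387, and the *Crabp2* points of *mEC1dup/dup* lie above those of WT.

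The members also varied among embryos of the same genotype. After the mean of each genotype was subtracted from log2 CPM, *Cyp26b1* and *Rarg* varied together over the 10 libraries (Pearson's r = 0.908), as did *Aldh1a3* and *Rarb* (0.904), *Aldh1a3* and *Cyp26a1* (0.803), and *Cyp26a1* and *Rarb* (0.797). *Crabp1* varied against the latter 3, with r of -0.824 with *Aldh1a3*, -0.834 with *Rarb* and -0.772 with *Cyp26a1*. *Crabp2* varied little with any of them (largest r 0.476, with *Aldh1a2*). These 10 points share their library preparation, dissection and composition, and *mEC1dup/dup* replicate 1, which had the lowest cartilage marker sum (1937 CPM, against 4111 to 5602 in the other *mEC1dup/dup* libraries), was also the *mEC1dup/dup* library with the lowest *Aldh1a3*, *Cyp26a1* and *Rarb* and the highest *Crabp1*. Against the summed suprabasal epidermal markers, also with genotype means removed, r over the 10 libraries was -0.712 for *Rarb*, -0.626 for *Aldh1a3*, -0.39 for *Cyp26a1* and 0.569 for *Crabp1*, and with the summed cartilage markers it was 0.455, 0.688, 0.576 and -0.419. WT replicate 4 had the lowest *Cyp26b1* and *Rarg* of the 10 libraries (70.6 and 205 CPM). It also had the lowest mesenchymal marker sum (4680 CPM, against 6356 to 8283 in the other WT libraries). Its sum of 3 neuronal markers was the highest, at 413 CPM. The part of these marker sums in this covariation was not tested.

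**Figure D3:**
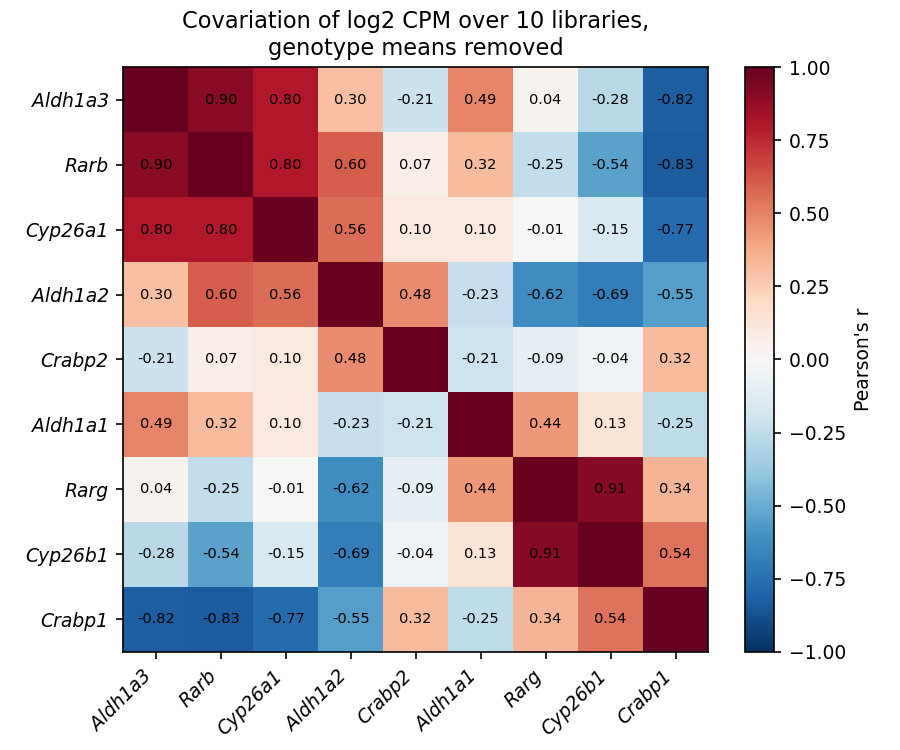
Pearson's r of log2 CPM between members over 10 libraries with genotype means removed, on a colour scale from -1 to 1. *Aldh1a3*, *Rarb* and *Cyp26a1* form a block with r of 0.80 to 0.90, *Rarg* and *Cyp26b1* a pair at 0.91, and *Crabp1* is opposite to the first block.

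By the same measure, among 14083 genes above the same minimum level, the genes most like *Crabp2* were *Myo16* (r = 0.955) and *Matcap2* (0.890). *Cyp26b1* was most like *Bmper*, which encodes a secreted regulator of BMP signals (0.976), and *Fzd1*, a Wnt receptor gene (0.972), while *Rarg* was most like *Zfp870* (0.952) and *Erg* (0.949). *Nkd2* was among the genes most like *Crabp1* (0.949). *Aldh1a3* was most like *Pnpla2* (0.973) and *Il33* (0.972), *Rarb* most like *Mbd3* (0.971) and *Pgp* (0.958), and *Cyp26a1* most like *Impdh1* (0.964) and *Cited1* (0.948). *Aldh1a2* was most like *Dio3* (0.943) and *Tti2* (0.936), and *Aldh1a1* most like *Gm19744* (0.937) and *Bach2* (0.922). Each is the highest or the next of 14083 values over 10 libraries, and they are given as a description.

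The members were then set among 45 genes of the wider pathway, of which 40 were tested. In this list 2 genes were higher DEGs (*Crabp2* and *Stra6*) and 1 was a lower DEG (*Fabp5*), against the 0.834% and 1.81% of all tested genes given above. Of the 40, 15 had an unadjusted p under 0.05, against 16.2% of all tested genes. A positive log2 fold change was found for 24 and a negative one for 16, against 48.8% positive among all tested genes, and the median was 0.04. *Dhrs9*, *Aldh8a1*, *Hoxb1*, *Cdx1* and *Stra8* did not pass the filter on low counts, with at most 11 counts in a library, and *Stra8* was at 0 in each.

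*Stra6* (uptake of retinol) had 405, 437, 412, 472 and 363 counts in WT and 570, 555, 584, 585 and 567 in *mEC1dup/dup*. The groups did not overlap, and the *mEC1dup/dup* libraries were close together. The mean rose from 23.4 ± 2.19 to 31.4 ± 0.813 CPM, a log2 fold change of 0.43 ± 0.06 (SE, 95% interval 0.29 to 0.57, edgeR adjusted p = 0.00632). It was called with any library left out and lost with *Xist* (log2 fold change 0.40, adjusted p = 0.313), the embryonic globin share (0.38, adjusted p = 0.898) or the epidermal marker level (0.53, adjusted p = 0.575) as a further term. *Fabp5* had 2738, 2538, 2241, 2558 and 2225 counts in WT and 2134, 1744, 1895, 1966 and 2047 in *mEC1dup/dup*, again without overlap in CPM, although *mEC1dup/dup* replicate 1 at 121.95 CPM was close to WT replicate 5 at 123.2. It fell by 0.36 on the log2 scale (SE 0.07, edgeR adjusted p = 0.0224), from 138 ± 14.1 to 108 ± 9.65 CPM. The *Fabp5* call was lost in 4 of 10 fits that left out a library, namely WT replicate 2 (adjusted p = 0.0589) and *mEC1dup/dup* replicates 2 (0.0668), 3 (0.0732) and 4 (0.0533). With the *Xist* level as a further term its log2 fold change was -0.33 (adjusted p = 0.427), with the embryonic globin share 0.10 (adjusted p = 0.969) and with the epidermal marker level 0.02 (adjusted p = 0.974). The globin share and the epidermal marker level do not overlap between the genotypes and cannot be told apart from genotype.

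**Figure D4:**
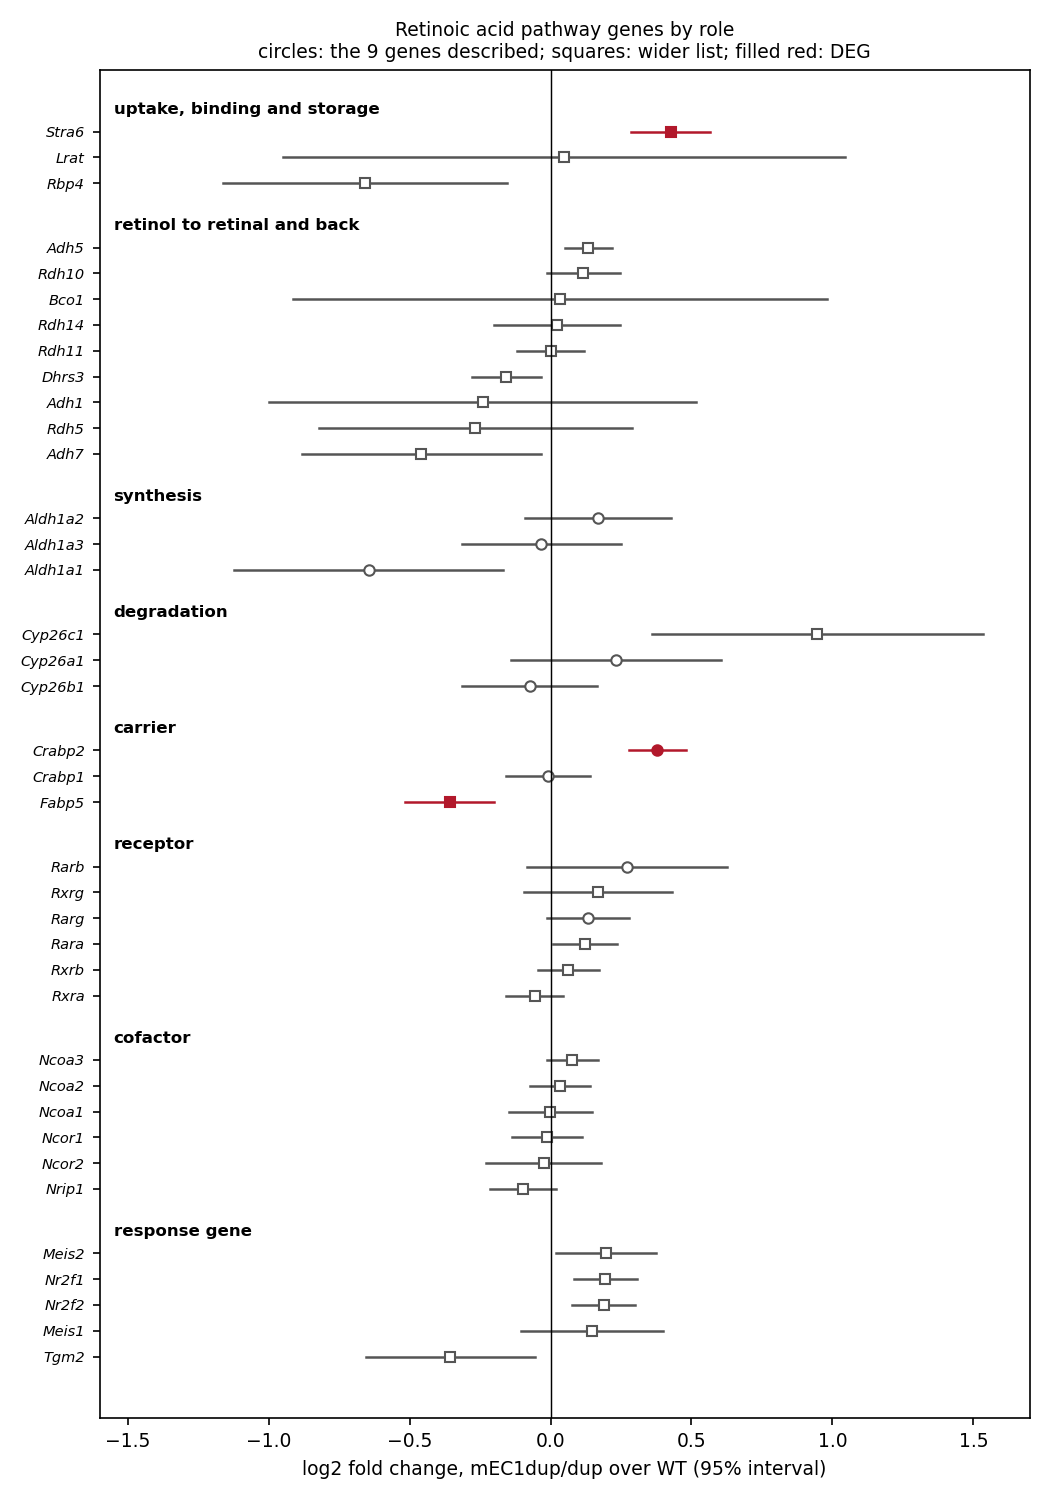
Log2 fold change (*mEC1dup/dup* over WT) with its 95% interval for 38 of the 40 tested genes of the wider list, grouped by role; circles are the 9 members, squares the other genes, and filled red symbols are DEGs. *Stra6* (0.43) and *Crabp2* (0.38) lie to the right of 0 and *Fabp5* (-0.36) to the left, and the wide intervals belong to genes with few counts.

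The remaining genes of the list were not called, and those named next were picked after their values were seen. Among the 9 tested genes that turn retinol into retinal or back, none was a DEG by edgeR, with 3 at an unadjusted p under 0.05 (16.2% of all tested genes) and 1 (*Adh5*) called by DESeq2, which called 831 of 16426 genes. *Adh5* was also called by edgeR without WT replicate 4 (adjusted p = 0.0325). *Rdh10*, the main embryonic retinol dehydrogenase gene, went from 56.2 ± 4.74 to 60.9 ± 2.97 CPM (log2 fold change 0.12, edgeR adjusted p = 0.372). *Dhrs3*, which encodes the opposing reductase, stood at a log2 fold change of -0.16 with adjusted p = 0.178. *Cyp26c1*, of the degradation family, had 22 to 43 counts in WT and 34 to 84 in *mEC1dup/dup*, with a log2 fold change of 0.95 (95% interval 0.36 to 1.53, edgeR adjusted p = 0.0853). It was called by DESeq2 (adjusted p = 0.0254) and by edgeR without *mEC1dup/dup* replicate 1 (adjusted p = 0.0444).

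None of the 6 receptor genes was a DEG by edgeR, with 1 at an unadjusted p under 0.05 (*Rara*, log2 fold change 0.12) and 0 by DESeq2, and none of the 6 corepressor and coactivator genes was, with 0 at an unadjusted p under 0.05 and 0 by DESeq2. Of 9 textbook response genes 6 were tested, and none was a DEG by edgeR, with 4 at an unadjusted p under 0.05, against 16.2% of all tested genes. The orphan receptor genes *Nr2f1* (log2 fold change 0.19, edgeR adjusted p = 0.0695) and *Nr2f2* (0.19, adjusted p = 0.0757) lay near the threshold and passed it with DESeq2 (0.0204 and 0.0201). By edgeR *Nr2f2* was called without WT replicate 5 (adjusted p = 0.0372) and *Nr2f1* without *mEC1dup/dup* replicate 1 (adjusted p = 0.0372). The log2 fold change of *Meis2* was 0.20 (adjusted p = 0.247) and that of *Tgm2* was -0.36 (adjusted p = 0.217). *Cyp26a1* and *Rarb*, named above as direct targets of the receptors, had positive log2 fold changes that the test did not separate from 0. Whether *Crabp2* or *Stra6* responded to retinoic acid here was not tested.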

How the data were processed

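Bulk RNA-seq of 5 WT and 5 *mEC1dup/dup* pinna prominences was analysed from a single table. The authors used fastp for trimming, STAR for alignment to GRCm39 and featureCounts for gene counting. The deposited values are these raw counts, not normalized. The annotation release, the use of strand and the treatment of reads with several matches are not given in the sources used here. The labels name an NEBNext Ultra kit and the paper's methods a TruSeq kit, neither of which marks strand. Unstranded reads can be credited to a gene on the opposite strand, or left uncounted where genes overlap, and which applied here is not known.

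Symbols came from GENCODE vM39 on GRCm39 and matched 49355 of 53465 identifiers, and the others held 0.111% of counts. Genes were filtered with filterByExpr, normalized by TMM and fitted with edgeR 4.0.16 in R 4.3.3 with genotype as the single term. P-values were adjusted by Benjamini-Hochberg over 16426 genes. DEGs were genes at or under 0.05 in adjusted p whose log2 CPM averaged 1 or more. The study names limma and edgeR but not the test. Intervals are 95% on the log2 scale, and standard errors are the log2 fold change divided by the square root of F. Log2 CPM used a prior count of 2. On simulated counts 94% of 200 genes changed by a log2 fold change of 1 were recovered among 16278 genes and 14 unchanged genes were called; smaller changes were not simulated. Alternatives were DESeq2 1.42.0, limma-voom (limma 3.58.1), other scalings and filters, covariates, a block for the replicate number, another gene length and leaving out each library.

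Members, lists and the rule for named genes were chosen with earlier results of these data known. The rule named each member, each DEG of the wider list, and for each member the 2 genes with the highest r within genotype. A few genes and a promoter sequence that these rules took in are not reported here. Depth was similar in the 10 libraries, and reads carry no molecular identifiers. Depth limits the precision of genes with few counts.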

Additional observations from a re-analysis of the deposited data

Results flagged for a closer look

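Of the 18 groups of 5 libraries (9 members in 2 genotypes), 3 held a library far from the others by Dixon's test, with the gap to its neighbour divided by the range of the group above 0.71. Chance flags about 1 in 20 groups. *Rarb* in *mEC1dup/dup* replicate 1 had a log2 CPM of 3.192 (gap over range 0.807), below the other *mEC1dup/dup* libraries at 3.85 and above. *Aldh1a3* in the same library had a log2 CPM of 4.795 (0.72), below the others at 5.33 to 5.54. *Cyp26a1* in WT replicate 5 had a log2 CPM of 2.826 (0.732), above the others at 2.34 to 2.47. Without *mEC1dup/dup* replicate 1 the log2 fold change of *Rarb* was 0.39 (adjusted p = 0.147), that of *Aldh1a3* was 0.08 (adjusted p = 0.751) and that of *Cyp26a1* was 0.36 (adjusted p = 0.218). Without WT replicate 5 the log2 fold change of *Cyp26a1* was 0.32 (adjusted p = 0.451), and without *mEC1dup/dup* replicate 5 it was 0.12 (adjusted p = 0.805). None of these passed the threshold.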

How the results depend on the processing

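The count of 1 DEG among the members (*Crabp2*) held with DESeq2 size factors, upper quartile scaling, the DESeq2 Wald test, limma-voom, no filter, a filter of 10 counts in every library, no minimum level, and each library left out (1 to 1). It was 0 with log2 CPM of *Xist*, the embryonic globin share or the epidermal marker level as covariate, the last chosen after seeing the data, with 3, 0 and 5 members at an unadjusted p under 0.05 in edgeR. Adjusted p for *Crabp2* was then 0.215, 0.939 and 0.575, with log2 fold changes of 0.33, 0.12 and 0.36. The wider list had 3 DEGs, 8 by DESeq2's Wald test, 0 with each of the 3 covariates (9, 2 and 10 unadjusted), and 2 to 5 with a library left out (5 without WT replicate 4 or *mEC1dup/dup* replicate 1). Over all genes there were 434 DEGs, 831 by DESeq2, 3, 0 and 0 with the covariates (1535, 793 and 1372 unadjusted), and 154 (without *mEC1dup/dup* replicate 3) to 655 (without WT replicate 4), with 178 to 260 without WT replicate 1, 2 or 3 or *mEC1dup/dup* replicate 2 or 4. Why these counts move was not tested. For *Aldh1a1* the exact permutation test passed its unadjusted threshold (difference of mean log2 CPM -0.62, p = 0.0159).

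Of the 9 members, 6 changed sign in some fit, none of them a DEG. With the globin share the log2 fold change was -0.55 for *Aldh1a2*, 0.51 for *Cyp26b1*, 0.083 for *Crabp1* and -0.65 for *Rarb*. With the epidermal marker level it was -0.21 for *Aldh1a2*, -0.30 for *Cyp26a1*, 0.29 for *Cyp26b1*, 0.31 for *Crabp1* and -0.62 for *Rarb*. With *Xist* it was 0.17 for *Aldh1a3*, against -0.71 with the epidermal marker level (edgeR unadjusted p = 0.0097, adjusted p = 0.575). With a library left out it ran from -0.11 to 0.078 for *Aldh1a3*, -0.17 to 0.0046 for *Cyp26b1* and -0.058 to 0.038 for *Crabp1*; the cause was not tested, and none of these values passed the threshold. With the longest transcript as length, WT levels per kilobase were 202 for *Crabp1*, 83.9 for *Crabp2*, 79.9 for *Rarg*, 10.3 for *Aldh1a3* (above *Aldh1a2* at 7.81), 2.81 for *Rarb* (overlapping *Cyp26a1*) and 0.496 for *Aldh1a1*.

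Genotypes share replicate numbers, and nothing in the labels says that a number marks a shared litter. Deviations of same-numbered libraries correlated with r of -0.056 to 0.345 (mean 0.162, against -0.040 for other pairs), above 0.1 in 4 of 5 pairs, and 4 of 10 libraries correlated best with their own number. In the main fit they were not treated as pairs because replicate 1 fell under 0.1, which does not exclude shared litters. With the replicate block, 1 member, 5 genes of the wider list (*Nr2f2* among those added) and 687 genes in all were DEGs, and the log2 fold change of *Crabp2* was 0.38 (adjusted p = 0.00198). At an unadjusted edgeR p under 0.05, 4 members and 3043 genes in all then passed, against 2 and 2658 without the block. Among the 4 were *Rarg* (unadjusted p = 0.017, adjusted p = 0.159) and *Rarb* (0.023 and 0.184), neither a DEG.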
